A study of Mus musculus with 20 samples.

Results

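The vascular endothelial growth factor (VEGF) family ligands Vegfa, Vegfb, Vegfc and Pgf were followed in mouse flank tissue through a time course of Ad-VEGF-A164, an adenoviral vector that carries VEGF-A164, a secreted and heparin-binding isoform of VEGF-A. Their members were all probe sets of the Affymetrix Mouse Genome 430 2.0 array that the platform annotation gives to exactly 1 of these 4 symbols, which left 7 of 45101 probe sets, and 4 of the 18194 genes named by a single symbol: 2 probe sets for Vegfa, 1 for Vegfb, 3 for Vegfc and 1 for Pgf. The groups were flank tissue of the control at day 0 (5 arrays, A to E) and of the Ad-VEGF-A164 flank model harvested on day 5 (4 arrays, B to E), day 20 (5 arrays) and day 60 (5 arrays). One further array, titled as day 5 A but with the source name of the day 0 control, entered no comparison. The labels name no group that received an empty vector and no control of a later day, so effects of VEGF-A, of the adenovirus, of its delivery and of harvest time cannot be told apart. The sources used here do not give strain, sex, age or dose. No label says that arrays of a group came from separate animals, so the p-values measure the spread between these arrays.

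VEGF family ligands are secreted dimers that act mainly on endothelial cells. VEGF-A binds the receptors encoded by Flt1 and Kdr, with the neuropilins as co-receptors, and drives vessel growth and permeability. VEGF-B, abundant in muscle and fat, and placental growth factor (PlGF, from Pgf) bind Flt1 and not Kdr, while VEGF-C is the main ligand of Flt4, the receptor of lymphatic endothelium, and can also bind Kdr once it has been cleaved. Low oxygen raises Vegfa RNA in many cell types through the hypoxia-inducible factors.

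Sequence upstream of 1 transcript start of each gene is shown. This was done because Vegfc and Pgf moved together below, while Vegfb and 1 of the Vegfa probe sets did not move with them. Each window holds the 250 bases before a transcript start in the RefSeq promoter table of GRCm38.p6, which held all 4 genes, and for Vegfa and Pgf, which have 2 windows each, the window farther upstream is printed. Capitals mark the GC box GGGCGG and the core letters of a hypoxia response element, ACGTG or GCGTG, both searched on both strands, so that a match on the other strand is printed as its reverse complement. No GC box overlapped a hypoxia core in these windows. The printed windows of Vegfa, Vegfb and Vegfc end at the annotated gene start. The printed Pgf window lies inside the annotated gene, with its transcript start 472 bases from the gene start.
Vegfa, chr17:46032378-46032627, minus strand: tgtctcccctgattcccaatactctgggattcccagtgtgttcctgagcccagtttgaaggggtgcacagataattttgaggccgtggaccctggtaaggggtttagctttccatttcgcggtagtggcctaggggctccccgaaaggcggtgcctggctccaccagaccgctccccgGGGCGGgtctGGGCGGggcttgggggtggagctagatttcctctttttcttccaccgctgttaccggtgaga
Vegfb, chr19:6987652-6987901, minus strand: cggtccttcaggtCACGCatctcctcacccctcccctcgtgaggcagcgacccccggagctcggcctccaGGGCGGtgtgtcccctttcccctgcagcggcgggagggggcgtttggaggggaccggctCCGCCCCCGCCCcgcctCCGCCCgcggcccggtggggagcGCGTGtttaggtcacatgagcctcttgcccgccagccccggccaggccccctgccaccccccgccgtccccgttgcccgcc
Vegfc, chr8:54077282-54077531, plus strand: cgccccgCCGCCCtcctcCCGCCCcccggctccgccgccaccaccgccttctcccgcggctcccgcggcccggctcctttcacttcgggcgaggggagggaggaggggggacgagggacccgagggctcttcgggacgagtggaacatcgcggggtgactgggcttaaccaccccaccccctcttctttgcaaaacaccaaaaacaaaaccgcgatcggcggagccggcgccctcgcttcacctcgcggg
Pgf, chr12:85177314-85177563, minus strand: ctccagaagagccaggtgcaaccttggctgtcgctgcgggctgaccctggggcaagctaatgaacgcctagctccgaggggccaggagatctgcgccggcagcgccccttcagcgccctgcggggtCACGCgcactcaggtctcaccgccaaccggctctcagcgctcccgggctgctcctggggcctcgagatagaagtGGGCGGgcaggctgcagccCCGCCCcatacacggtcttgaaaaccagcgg
All 4 printed windows hold GC boxes, 2 in Vegfa, 4 in Vegfb, 2 in Vegfc and 2 in Pgf, beside 32.7% of all 32851 windows of this length that hold at least 1. Hypoxia cores were found in Vegfb, with 2, and in Pgf, with 1, beside 38.6% of all windows. The printed windows of Vegfa and Vegfc hold no hypoxia core, which says only that these letters are not in these 250 bases. The Vegfa window that is not printed holds 1 GC box and 2 hypoxia cores, and the Pgf window that is not printed holds 0 of either. Each of these windows lies inside the annotated gene. Their transcript starts are 7214 bases from the Vegfa gene start and 1803 bases from the Pgf gene start. The bases G and C made up 59.2% of the Vegfa window, 76.4% of the Vegfb window, 71.6% of the Vegfc window and 68.4% of the Pgf window, against a median of 52.4% over all windows. Neither an AP-1 site (TGANTCA, in 6.75% of all windows) nor a TATA box (TATAAA, in 12.4%) was found in any of the 4. Each match is a description of letters and not of a bound site.

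Signals are MAS5 intensities on a linear scale, scaled by the authors so that the trimmed mean of each array was 1500. Median signals ran from 405.9 to 569.3 over the arrays. Markers of skeletal muscle, fat and epidermis, which flank tissue holds, were all present in control, where the lowest group mean of a marker was 19492.4 over 13 muscle markers, 1076.7 over 10 adipocyte markers and 651 over 10 keratinocyte markers. No detection calls were used, so a low signal cannot be told from background. The ratio of the 3 prime to the 5 prime Actb control probe sets, a sign of RNA degradation or shortened labelling products, averaged 7.10 ± 1.89 in control arrays, 4.82 ± 1.96 on day 5, 4.48 ± 1.84 on day 20 and 8.82 ± 4.24 on day 60 (SD), and day 60 A, B and D had 14, 10.4 and 10.9. Changes were tested with limma on log2(signal + 100) over 45037 probe sets and called at a Benjamini-Hochberg adjusted p under 0.05. The added 100 makes a fold of low signals smaller than it was.

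Vegfa is also the gene that the vector carries. Its probe set 1451959_a_at, whose suffix marks a set that matches several transcripts of 1 gene, had 144.9, 66.5, 142.1, 161.9 and 467.0 on control arrays A to E. It had 9410.0, 8387, 3927 and 5232 on day 5 B to E, and 9141, 7451, 7127, 9046 and 13514 on day 20 A to E. On day 60 A to E it had 331.6, 1076, 242.3, 218.6 and 448.9. Every day 5 and day 20 array lay above every control and every day 60 array, while the day 60 and control ranges overlapped. Against control the signal was 23.8-fold higher on day 5, a log2 change of 4.57 ± 0.37 SE (adjusted p = 7.32e-08). On day 20 it was 33.6-fold higher, a log2 change of 5.07 (adjusted p = 7.61e-09). With a pseudocount of 1 in place of 100 these log2 changes were 5.30 and 5.81, and with 500 they were 3.33 and 3.80. On day 60 the log2 change against control was 0.87, with a 95% interval from 0.15 to 1.6 and an adjusted p of 0.319. On day 60 it was 18.3-fold lower than on day 20 (log2 change -4.20, adjusted p = 1.26e-07) and 13-fold lower than on day 5 (log2 change -3.70, adjusted p = 1.3e-06). The control arrays and the day 60 arrays varied most, with a coefficient of variation of 76.4% on day 60 and 79.2% in control, against 38.3% on day 5 and 27.5% on day 20.

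The other Vegfa probe set, 1420909_at, went the other way. It had 2629, 1344, 1921, 1932 and 2286 on control A to E. It had 640.3, 700.8, 797.0 and 741.7 on day 5 B to E, 901.8, 851.5, 1149, 1177 and 1068 on day 20 A to E, and 1937, 1012, 2325, 1944 and 1533 on day 60 A to E. All day 5 and day 20 arrays lay below all control arrays, and day 60 B was the one day 60 array below the lowest control. Day 5 was 2.54-fold below control, with a log2 change of -1.34 ± 0.20 SE (adjusted p = 9.57e-05), and day 20 was 1.85-fold below it, with -0.89 (adjusted p = 0.00304). On day 60 the log2 change against control was -0.21 (95% interval -0.61 to 0.18, adjusted p = 0.718). Its signal was higher on day 60 than on day 5, by 1.13 on the log2 scale (adjusted p = 0.000876), and than on day 20, by 0.67 (adjusted p = 0.0275), although day 60 and day 20 arrays overlapped. With the Actb ratio as a covariate the difference from day 20 was 0.57 and no longer passed the test, with an adjusted p of 0.152. It also missed the threshold when day 20 A or B or day 60 A, C or D was left out, with adjusted p between 0.0619 and 0.0779. The positions of both sets along Vegfa RNA were not analysed here, and whether either reads the RNA made from the vector was not tested.

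The pair was compared within each array, as log2(signal + 100) of 1451959_a_at minus that of 1420909_at, which shows unequal change and not which set is nearer to the RNA level. The difference was -3.48, -3.12, -3.06, -2.96 and -2.07 in control A to E, and 3.68, 3.41, 2.17 and 2.66 in day 5 B to E. It was 3.21, 2.99, 2.53, 2.84 and 3.54 in day 20 A to E, and -2.24, 0.08, -2.82, -2.68 and -1.57 in day 60 A to E. All day 5 and day 20 arrays lay above all control arrays, and day 60 overlapped control, with day 60 B the highest of its group. The mean difference was 2.98 ± 0.69 on day 5 (SD, n = 4), 3.02 ± 0.38 on day 20 and -1.85 ± 1.18 on day 60, against -2.94 ± 0.52 in control (n = 5 each). These values are a description, since the disagreement of both sets was known when the pair was chosen.

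**Figure D1:**
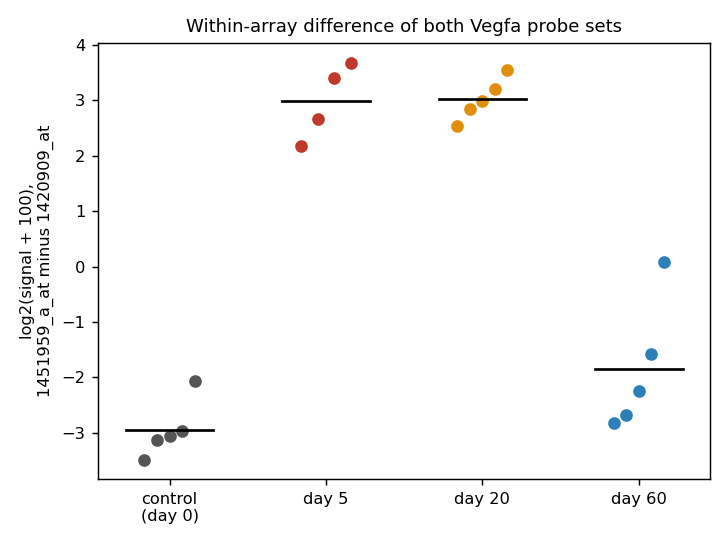
Difference of log2(signal + 100) between the Vegfa probe sets 1451959_a_at and 1420909_at on each array (points), with group means (lines), for control at day 0 and for days 5, 20 and 60. All day 5 and day 20 arrays lie above all control arrays, and day 60 B at 0.08 stands above the other day 60 arrays.

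Vegfc, which encodes the ligand of Flt4, is read by 3 probe sets, and they moved the same way. The set 1439766_x_at, whose suffix marks probes that can also match other sequences, had 1657, 2407, 3030.0, 2768 and 1796 on control A to E and 7632, 5539, 3190.1 and 4258 on day 5 B to E. It had 7358, 7521, 5483, 9083 and 5619 on day 20 A to E and 2973, 3054, 2805, 1565 and 2322 on day 60 A to E. All day 5 and day 20 arrays lay above all control arrays, the nearest being day 5 D at 3190.1 beside control C at 3030.0. Against control it was 2.11-fold higher on day 5, by 1.08 ± 0.24 SE on the log2 scale (adjusted p = 0.00372), and 2.95-fold higher on day 20, by 1.56 (adjusted p = 7.94e-05).

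The set 1419417_at had 276.9, 322.9, 291.4, 304.1 and 239.5 on control A to E, and 635.9, 809.8, 535.3 and 735.8 on day 5 B to E. It had 1145, 983.5, 1029, 1145 and 1207 on day 20 A to E, and 359.9, 568.3, 679.5, 201.3 and 304.1 on day 60 A to E. Control arrays were close together and every day 5 array stood above them, and every day 20 array stood above every day 5 array. It rose by 1.0 on the log2 scale on day 5 (SE 0.22, adjusted p = 0.00323) and by 1.64 on day 20 (3.11-fold, adjusted p = 1.67e-05) against control.

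The set 1440739_at had 1320.1, 1705, 1748, 1649 and 1047 on control A to E, and 2716, 2158, 1946 and 1960.5 on day 5 B to E. It had 3402, 3101, 2751, 3744 and 3482 on day 20 A to E, and 1222, 2155, 2046, 1038 and 1336 on day 60 A to E. Day 5 arrays were all above control arrays here too, but the log2 change of 0.54 ± 0.20 SE did not pass the test (95% interval 0.13 to 0.95, adjusted p = 0.0665). It passed under 6 alternatives of the processing, with adjusted p between 0.0258 and 0.0483, one of them without day 60 B (0.0452). On day 20 it was 2.15-fold higher than in control (log2 change 1.11, adjusted p = 0.000305).

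By day 60 none of the Vegfc sets was called against control, with log2 changes of 0.12 for 1439766_x_at, 0.03 for 1440739_at and 0.35 for 1419417_at, and all 3 ranges overlapped the control range. Day 60 was below day 20 in all 3, without overlap: the log2 changes were -1.44 (adjusted p = 0.000296) for 1439766_x_at, -1.08 (adjusted p = 0.000603) for 1440739_at and -1.28 (adjusted p = 0.000377) for 1419417_at. Against day 5, 1439766_x_at was lower on day 60 (log2 change -0.96, adjusted p = 0.0129), and the test was not passed by 1440739_at (log2 change -0.51, adjusted p = 0.106) or 1419417_at (log2 change -0.65, adjusted p = 0.066). The -0.96 lost its call without day 5 B (log2 change -0.75, adjusted p = 0.0669), with the Actb ratio as a covariate (log2 change -0.75, adjusted p = 0.0801), without the day 60 arrays with an Actb ratio over 10 (adjusted p = 0.0876) and with day 5 A counted as control (adjusted p = 0.0717). In 1440739_at and 1419417_at, day 20 arrays did not overlap day 5 arrays, but the log2 changes of 0.57 (adjusted p = 0.163) and 0.64 (adjusted p = 0.17) did not pass.

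Vessel cells were followed by their markers. Beside this and all later counts of lists against control, 8.54% of all probe sets rose and 8.7% fell on day 5. The shares were 7.52% and 6.95% on day 20, and 0.0777% and 0.224% on day 60. With 1 probe set per gene, as the lists are read, 22.6% were called in all on day 20. Of 12 endothelial markers 11 rose on day 5 and 12 on day 20 against control, and their summed signal ran from 80090 to 91560 on day 5 and from 60900 to 91860 on day 20, against 19340 to 24730 in control. On day 60 the sum ran from 20270 to 36070, and limma called none of the 12, with 1 at an unadjusted p under 0.05. Of 11 pericyte and smooth muscle markers 6 rose on day 5, while 10 rose and 1 fell on day 20, with sums from 164700 to 222100 on day 5 and from 312000 to 384900 on day 20, against 92830 to 118600 in control. The lowest group mean of a marker in either list was 36.8, for Tie1 in control, a level that cannot be told from background. Of 6 lymphatic endothelial markers with a probe set, 2 rose and 1 fell on day 5, with a sum from 21090 to 49140. On day 20, 2 rose, with a sum from 14370 to 31150, against 10940 to 16690 in control. Flt4 rose on both days, at the same probe set that is counted again among the receptor genes below. On day 60, 1 of the 6, Mmrn1, rose (3.76-fold, adjusted p = 0.0449), 3 had an unadjusted p under 0.05, and the sum ran from 14690 to 49030. Prox1, the defining transcription factor of that lineage, averaged 114.5 ± 45.8 on day 5, 361.3 ± 211.6 on day 20 and 447.2 ± 430.2 on day 60, against 96.9 ± 38.8 in control (SD), and was not called on any day. The part of these markers in the ligand results was not tested. In whole tissue, fewer cells of a type and less RNA per cell cannot be told apart.

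Pgf, which encodes PlGF, had 325.8, 54.7, 108.1, 187.7 and 242.5 on control A to E at its probe set 1418471_at. It had 471.1, 866.1, 561.7 and 986.9 on day 5 B to E, 862.2, 1388, 933.0, 609.3 and 409.9 on day 20 A to E, and 425.7, 727.3, 170.5, 315.0 and 98.7 on day 60 A to E. All day 5 and day 20 arrays were above all control arrays, and day 60 arrays overlapped both control and day 20 arrays. Against control Pgf was higher by 1.57 ± 0.39 SE on the log2 scale on day 5, or 2.98-fold (adjusted p = 0.00742), and by 1.73 ± 0.37 on day 20, or 3.31-fold (adjusted p = 0.00277). Because the signals are low, the pseudocount sets much of the size: with 1 the log2 changes were 2.15 and 2.32, and with 500 they were 0.83 and 0.94, all of them called. On day 60 the log2 change against control was 0.57 (95% interval -0.20 to 1.33, adjusted p = 0.588). Against day 5 the day 60 log2 change was -1.0 and not called (adjusted p = 0.108). It was called with the Actb ratio as a covariate (log2 change -1.39, adjusted p = 0.0371) and without the day 60 arrays with an Actb ratio over 10 (log2 change -1.78, adjusted p = 0.0203). The fall on day 60 against day 20 sat at the threshold (log2 change -1.16, adjusted p = 0.0495) and was lost under 19 of 32 alternatives, and of the 19 alternatives that leave out 1 array it held without control A or B, day 20 E or day 60 A or B. The adjusted p was 0.143 without day 20 B and 0.066 with the array letter as a replicate block. Of 11 macrophage markers 8 rose on day 5, with a sum from 188000 to 251600 against 44930 to 103100 in control. On day 20, 5 rose and 1, Cd163, fell, with a sum from 84610 to 179500. Their part in the Pgf values was not tested.

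Vegfb varied widely within groups, with a coefficient of variation between 36.6% and 70.4%. Its probe set 1451803_a_at had 1071, 595.2, 152.5, 521.9 and 988.3 on control A to E, 220.6, 386.7, 102.0 and 83.7 on day 5 B to E, 701.6, 259.3, 112.7, 616.4 and 622.3 on day 20 A to E, and 417.1, 416.6, 740.0, 510.0 and 273.0 on day 60 A to E. Control C, day 20 B and C and day 60 E lay inside the day 5 range, and all groups overlapped. No contrast of Vegfb passed the test. The log2 change against control was -1.29 on day 5 (95% interval -2.22 to -0.36, adjusted p = 0.0513), -0.43 on day 20 (95% interval -1.30 to 0.45, adjusted p = 0.575) and -0.29 on day 60 (95% interval -1.16 to 0.59, adjusted p = 0.845). The day 5 change was called under 6 alternatives. Without control C the log2 change was -1.64 (adjusted p = 0.0087), without day 5 C or day 20 C the adjusted p was 0.0332, and with probe sets of a mean signal of at least 300 alone it stayed -1.29 (adjusted p = 0.0345).

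Fat and muscle, which flank tissue holds, were followed by their markers. Of 10 adipocyte markers with a probe set 8 fell on day 5 and 8 on day 20, and their summed signal ran from 150200 to 163000 on day 5 and from 161600 to 199200 on day 20, against 214700 to 460400 in control. On day 60, 3 of the 10 fell, and 9 were lower at an unadjusted p under 0.05. The adipocyte sum ran from 120600 to 306900 on day 60 and overlapped control. The median log2 change of the 10 against control was -1.51 on day 5, -1.66 on day 20 and -1.3 on day 60. Of 13 skeletal muscle markers 4 fell on day 5, beside 8.7% of all probe sets, and 1, Casq1, on day 20, beside 6.95%. These markers are bright, and of probe sets with a mean signal of at least 1000, 38.8% were called in either direction on day 5 and 32.7% on day 20. Among the 13 markers, 7 were lower on day 5 and 3 on day 20 at an unadjusted p under 0.05. Their sum ran from 164500 to 679200 on day 5, 338000 to 856500 on day 20 and 100600 to 1386000 on day 60, against 672500 to 1118000 in control, and it overlapped control on each day. Day 60 B had the lowest muscle sum of all assigned arrays, 100600, and the highest adipocyte sum of day 60, 306900. It also had the lowest 1420909_at and the highest 1451959_a_at of day 60. The part of fat and muscle markers in the Vegfa and Vegfb values was not tested.

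**Figure D2:**
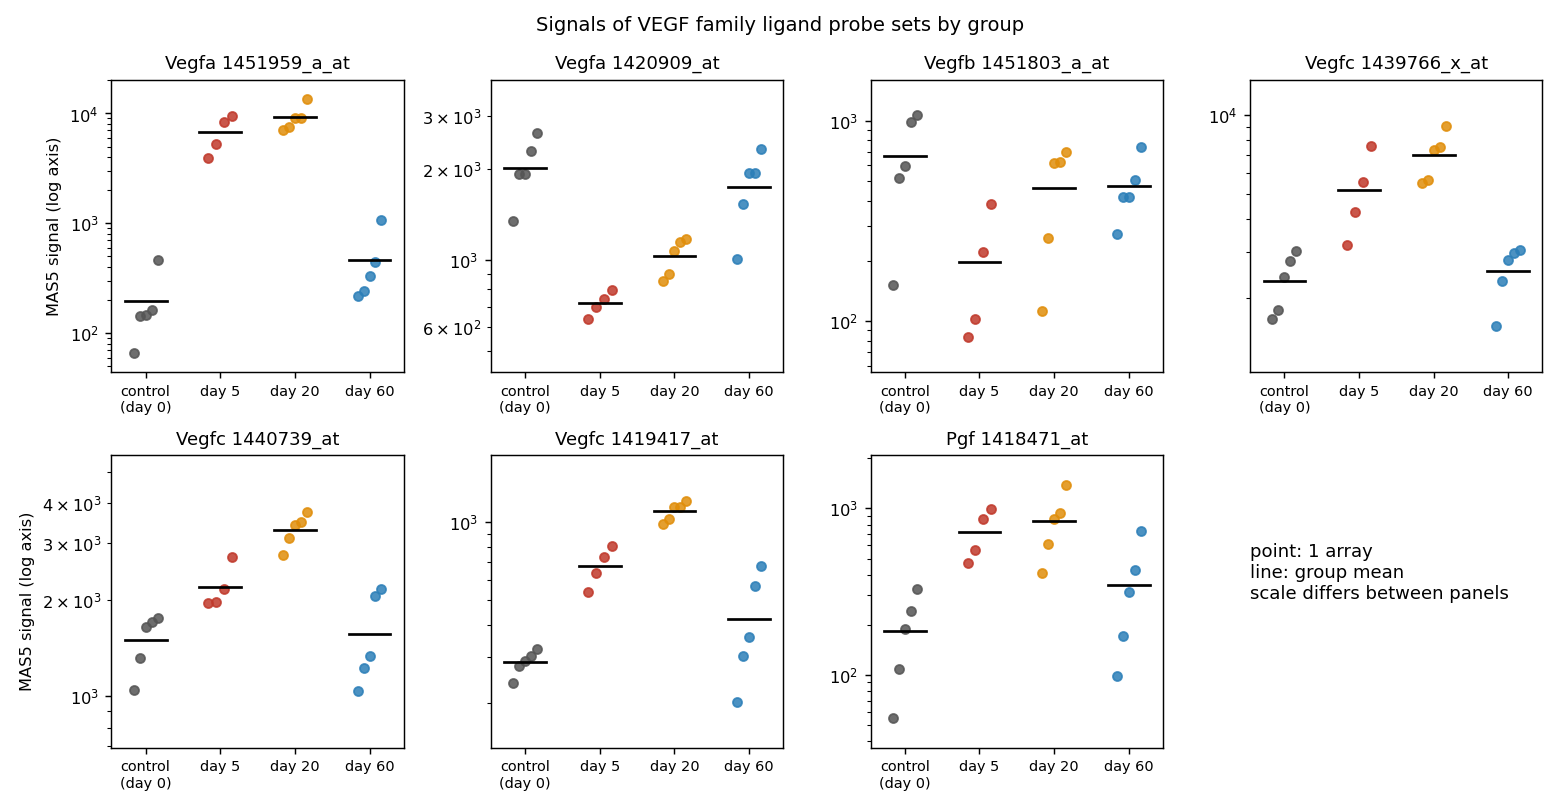
MAS5 signal (log axis, scale differing between panels) of each VEGF family ligand probe set on every assigned array (points) with group means (lines), for control at day 0 and for days 5, 20 and 60. Vegfa 1451959_a_at, the Vegfc sets and Pgf are highest on days 5 and 20, Vegfa 1420909_at is lowest there, and Vegfb overlaps throughout.

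Counted together, 4 of the 7 probe sets rose and 1 fell on day 5, beside 8.54% and 8.7% of all tested probe sets that rose and fell, or 17.2% called in all. On day 20, 5 rose and 1 fell, beside 7.52% and 6.95%, or 14.5% called in all. Arrays did not overlap control arrays in 6 of the 7 on day 5, beside 17.1% of all probe sets, and in 6 on day 20, beside 12%. The median log2 change of the 7 was 1.0 on day 5 and 1.56 on day 20, against -0.07 and -0.05 over all probe sets. On day 60 limma called 0 of the 7 against control, beside 0.302% of all probe sets, of which 0.0777% rose and 0.224% fell. Without adjustment 1 of the 7, Vegfa 1451959_a_at, had a p under 0.05. Every one of the 7 overlapped control, where 1.87% of all probe sets did not, and their median log2 change was 0.12 against -0.01 over all probe sets.

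Between treated days, limma called 0 of the 7 on day 20 against day 5, with 3 at an unadjusted p under 0.05 and 3 without overlap, beside 1.99% called (1.11% higher and 0.886% lower) and 7.61% without overlap over all probe sets. On day 60 against day 20, 5 fell and 1 rose, beside 5.26% and 4.98%, or 10.2% called in all, and 4 did not overlap, beside 9.25%. On day 60 against day 5, 2 fell and 1 rose, beside 6.13% and 5.22%, or 11.4% called in all, and 3 did not overlap, beside 12.1%. Without day 60 B the number called on day 60 against day 5 was 6, as Vegfc 1440739_at (adjusted p = 0.0369), Vegfc 1419417_at (adjusted p = 0.0346) and Pgf (adjusted p = 0.0323) fell too. The probe sets of 1 gene are not independent members and all contrasts against control share the control arrays, so these counts are not independent of each other. By mean signal the order was day 20, day 5, day 60 and control for 1451959_a_at, the 3 Vegfc sets and Pgf. In these 5 sets the neighbours day 20 and day 5, and the neighbours day 60 and control, did not differ past the test, and day 5 and day 60 did so in 1451959_a_at and 1439766_x_at. For 1420909_at the order was control, day 60, day 20 and day 5, where day 60 and day 20 were the neighbours that differed past the test.

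**Figure D3:**
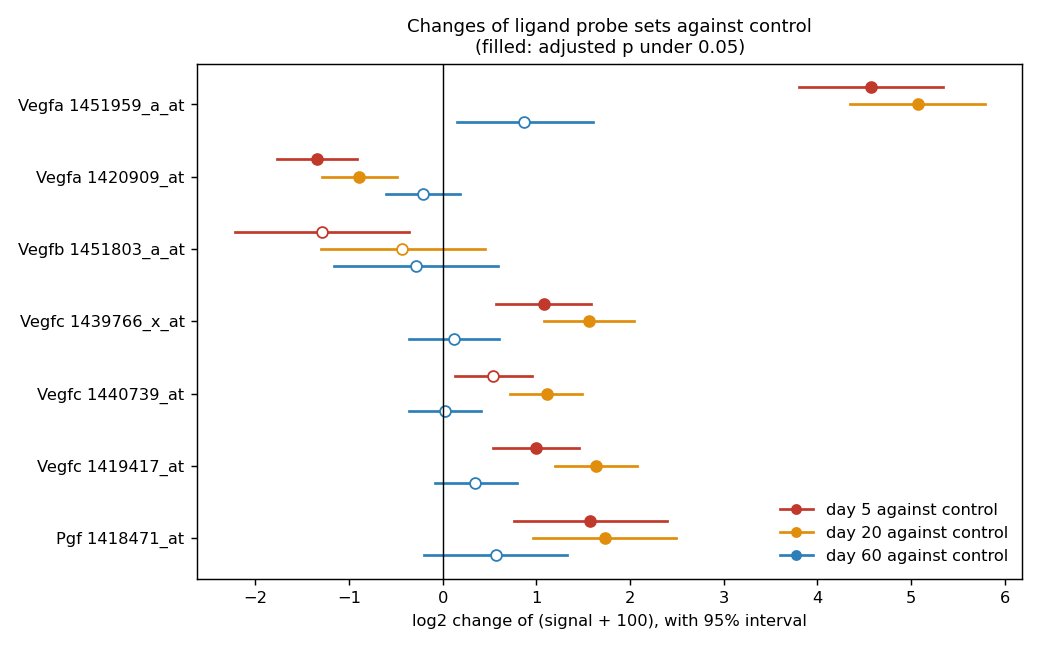
Log2 change of (signal + 100) against control with its 95% interval for each VEGF family ligand probe set on days 5, 20 and 60, with filled points at an adjusted p under 0.05. Day 60 points are all open and nearest to 0 in each probe set, while the Vegfa sets lie on opposite sides of 0 on days 5 and 20.

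Vegfd, which encodes the other ligand of Flt4, is read by 3 probe sets, and limma called none of them on any day against control. Its brightest set had a mean of 4774.2 ± 1089.9 on day 5 against 4563.1 ± 1023.1 in control (SD, log2 change 0.06, adjusted p = 0.91), with log2 changes of -0.35 on day 20 and -0.18 on day 60.

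Of the 5 receptor and co-receptor genes, each read at its brightest probe set, 4 rose on day 5, 5 on day 20 and 1, Nrp2, on day 60 against control. Flt4, the receptor for VEGF-C, averaged 5156.1 ± 1328.8 on day 5 against 1048.8 ± 214 in control (4.54-fold, adjusted p = 1.64e-05), but its dimmer probe set had log2 changes of 0.03 on day 5 and 0.13 on day 20, neither called. Flt1, the receptor for VEGF-A, VEGF-B and PlGF, rose by 2.28 on day 5 and 2.03 on day 20 on the log2 scale, and all 4 of its probe sets were called on both days. Kdr rose by 1.61 and 1.79. The co-receptor Nrp1 rose by 0.90 and 1.18, in 3 of its 4 probe sets. On day 60 the co-receptor Nrp2 alone was called at its brightest set, by 0.74 (1.67-fold, adjusted p = 0.0205), and 2 of its 4 probe sets were called. Nrp2 had a day 5 log2 change of 0.34, not called (adjusted p = 0.107), and rose by 0.76 on day 20 (adjusted p = 0.000461).

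Genes that process or hold the ligands changed one by one. Of 12 such genes 3 rose and 1 fell on day 5, 4 rose and 1 fell on day 20, and limma called none on day 60, where 4 had an unadjusted p under 0.05. The protein of Ccn2, connective tissue growth factor, can bind VEGF-A, and Ccn2 averaged 33737.9 ± 7536.3 on day 5 against 5188.1 ± 2752.7 in control (6.82-fold, adjusted p = 0.000778), and rose 8.44-fold on day 20. Adamts1, a metalloproteinase that can bind VEGF-A, rose 3.06-fold on day 5 and 2.81-fold on day 20. RNA of Adamts3 and Ccbe1, whose products serve the cleavage of VEGF-C, went opposite ways, and cleavage itself was not measured. Adamts3, the protease that activates pro-VEGF-C, had a low signal, with 326.3 ± 38.6 on day 5 (SD). It fell by 0.63 on day 5 (adjusted p = 0.0483) and by 1.01 on day 20 (adjusted p = 0.00154) on the log2 scale. Ccbe1, the cofactor of that cleavage, rose by 1.11 on day 20 (adjusted p = 0.0448), and its day 5 log2 change of 0.86 was not called (adjusted p = 0.142). Adamts3, Ccbe1 and Pcsk7 were named after their values were seen, and Pcsk7, a proprotein convertase, rose by 0.59 on day 5 and 0.46 on day 20.

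Genes of oxygen sensing were mixed. Of 8, 1 rose and 4 fell on day 5, 2 rose and 3 fell on day 20, and limma called none on day 60, where 1 had an unadjusted p under 0.05. Epas1, which encodes hypoxia-inducible factor 2 alpha and is abundant in endothelium, averaged 70904.4 ± 15118 on day 20 against 29741.5 ± 9138.3 in control (2.43-fold, adjusted p = 0.000706). Egln3, a prolyl hydroxylase that marks these factors for degradation and is itself induced by low oxygen, was 3.06-fold lower on day 5 and 2.62-fold lower on day 20 than in control. Of 10 hypoxia target genes 1 rose and 4 fell on day 5, and 2 fell and none rose on day 20. At an unadjusted p under 0.05, 1 was higher and 3 lower on day 20. On day 60 limma called none, and 2 were higher and 1 lower at an unadjusted p under 0.05. Bnip3, a mitochondrial target of the factors, averaged 9244.9 ± 3426.9 on day 20 against 27882.4 ± 5814.3 in control (3.14-fold lower, adjusted p = 0.000183), and Pdk1, which holds pyruvate out of mitochondria, was 2.99-fold lower (adjusted p = 0.00052). Skeletal muscle also expresses Bnip3, and the muscle marker sums given above ran lower on these days, with overlap. Their part in these values was not tested.

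**Figure D4:**
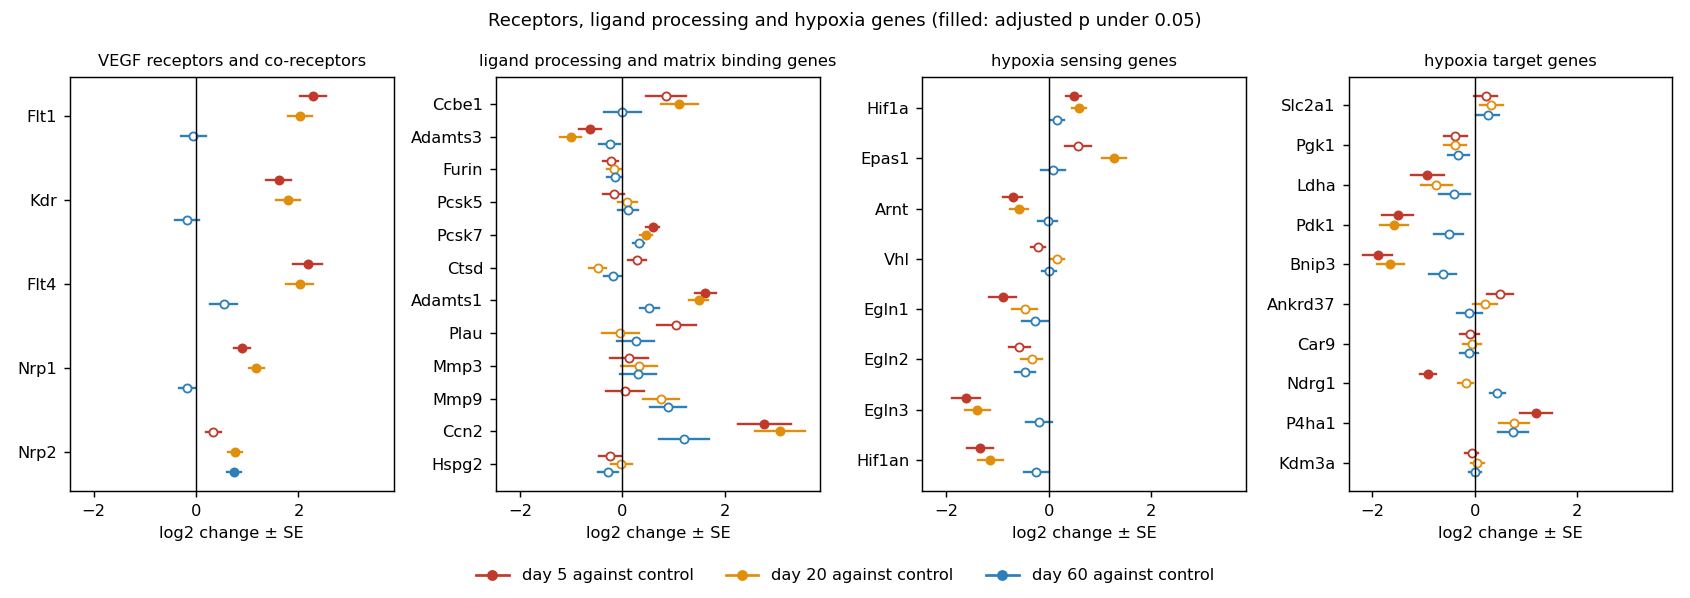
Log2 change of (signal + 100) against control with its SE for the receptor, ligand processing, hypoxia sensing and hypoxia target genes, each at its brightest probe set, on days 5, 20 and 60, with filled points at an adjusted p under 0.05. The receptors lie right of 0 on days 5 and 20, the hypoxia target genes Bnip3 and Pdk1 lie left of it, and most day 60 points are open.

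Genes with the most similar course were found from the root mean square difference over the 19 assigned arrays, after each probe set was set to 0 at its own control mean on the log2 scale. For 1451959_a_at of Vegfa they were Esm1, the endothelial proteoglycan endocan, at 0.60, the potassium channel subunit Kcne3 at 0.71 and the endothelial protocadherin Pcdh12 at 0.81. For 1420909_at they were Zbtb44 at 0.18, Lynx1 at 0.20 and the nuclear receptor gene Rora at 0.22. The genes nearest to the Vegfc sets differed from set to set: Fkbp7 (0.31), Srgn (0.33) and Pdgfa (0.33) for 1439766_x_at, Pls3 (0.23), Rock1 (0.25) and Fam20c (0.25) for 1440739_at, and Filip1l (0.23), Sparcl1 (0.25) and She (0.28) for 1419417_at. For Pgf they were Sipa1 (0.42), the integrin gene Itgax (0.43) and Pear1 (0.44). A flat course gives small differences more readily, so the values are not ranked between probe sets, and the arrays are shared by every pair.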

How the data were processed

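The 20 arrays (Affymetrix Mouse Genome 430 2.0) hold total RNA from mouse flank. Per the labels, the deposited linear intensity values are MAS5 signals, made with MAS 5.0 in GCOS 1.3, background corrected and scaled to 1500. The number of arrays limits the precision, since array files give no read depth. Groups and array letters came from titles and source names, and 19 arrays were assigned. No array was a copy of another.

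Probe sets were named from the platform annotation where it gave 1 symbol (34958 probe sets). Log2(signal + 100) of 45037 probe sets without the 64 AFFX controls, with no filter on low signal, was fitted with limma 3.58.1 (R 4.3.3, lmFit, eBayes with trend) as 4 group means, two-sided, with Benjamini-Hochberg adjustment over all probe sets. The Vegfa probe sets were set against each other within each array. The exact permutation tests planned for that pair (SciPy 1.17.1) are not quoted, since its disagreement was known when it was chosen. The fit was tested on simulated data. Other genes were read at their brightest probe set. Named genes were the members, the receptors, Vegfd, the 2 genes of each list with the largest day 20 change among those called, and the 3 most similar genes per called member (1 symbol, mean signal at least 300), and Adamts3, Ccbe1, Pcsk7, Tie1 and Prox1 were named after their values were seen. The members, lists and rules were chosen with earlier results of these data known. Alternatives were pseudocounts of 1 and 500, filters at 300 and 1000, quantile or 75th percentile scaling, no trend, array weights, a fit of both compared groups alone, array letter as a replicate block, 1 probe set per gene, day 5 A in either group, the Actb ratio as a covariate and each array left out. Leaving out the day 60 arrays with an Actb ratio over 10 was added after the data were seen. No list was tested as a set.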

Additional observations from a re-analysis of the deposited data

Results flagged for a closer look

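In Vegfa 1451959_a_at, control E (467.0) stood apart from the other control arrays, and day 60 B (1075.6) from the other day 60 arrays, by Dixon's test. These were 2 of 56 ends over 28 groups of members, where chance alone passes about 1 in 20 groups. Day 60 B also had the highest Esm1 (7091.8) and Kcne3 (410.3) of its group. The other day 60 arrays had 812.2 to 3206.5 and 152.8 to 207.5. Of the day 60 arrays, B had the lowest muscle marker sum (100600 beside 534600 to 1386000). It had the highest adipocyte marker sum (306900 beside 120600 to 222800).

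The change against control differed between days by direct contrast. On day 60 against day 20 the log2 differences were -4.2 and 0.67 for the Vegfa sets 1451959_a_at and 1420909_at, -1.44, -1.08 and -1.28 for the Vegfc sets 1439766_x_at, 1440739_at and 1419417_at, and -1.16 for Pgf. On day 60 against day 5 they were -3.7 and 1.13 for the Vegfa sets and -0.96 for Vegfc 1439766_x_at.

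The array titled day 5 A, whose source name is that of the control, was above every control array in 5 probe sets: Vegfa 1451959_a_at at 11111.1, Vegfc 1439766_x_at at 6832.3, 1440739_at at 2603.4 and 1419417_at at 899.8, and Pgf at 603.8. It was below every control array in Vegfa 1420909_at (788.3) and Vegfb (45.5). 4 of its 7 values lay within the day 5 range, and Vegfa 1451959_a_at and Vegfc 1419417_at lay above it and Vegfb below it. Its group stayed unassigned.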

How the results depend on the processing

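Of 42 log2 changes followed under up to 33 alternatives, 20 were called, 14 of these under every alternative run for them, and none of the 20 turned its direction. Besides those named in the report, Vegfa 1420909_at on day 60 against day 20 lost its call under 8 alternatives. With day 5 A counted as control, Vegfc 1439766_x_at and 1419417_at on day 5 and Vegfa 1420909_at on day 20 lost theirs, the day 5 count fell to 3 of 7, and day 60 log2 changes turned for Vegfa 1451959_a_at (-0.02), Vegfb (0.08), Vegfc 1439766_x_at (-0.14) and 1440739_at (-0.1). Vegfc 1440739_at also turned with array weights (-0.08) and ran from -0.1 to 0.15 with 1 array left out. Pgf on day 60 turned (-0.2) without the high Actb ratio arrays, which was added after the data were seen. With 1 array left out, Pgf on day 20 against day 5 ran from -0.04 to 0.35 and Vegfb on day 60 against day 20 from -0.17 to 0.31. The mean difference between the Vegfa probe sets on day 60 minus that in control was 1.09 with the main settings. This change against control was 1.49 with pseudocount 1, -0.01 with day 5 A as control, and 0.61 to 1.33 with 1 array left out. The count of members called was 2 on day 20 against day 5 in a fit of both groups alone, and on day 60 against day 5 it was 6 with array weights, 5 with day 5 A as day 5 and 2 to 6 with 1 array left out, 6 being without day 60 B. The causes were not tested.

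The share of all probe sets called moved with filters, which test fewer probe sets. In the order day 5, day 20 and day 60 against control, day 20 against day 5, day 60 against day 20 and day 60 against day 5, it was 28.2%, 23.7%, 0.475%, 3.9%, 17.5% and 19.9% at a mean of at least 300, and 38.8%, 32.7%, 0.748%, 6.7%, 24.8% and 29% at 1000. With 1 probe set per gene it was 22.6%, 0.682%, 3.41%, 16% and 17.4% in the last 5, and with day 5 A as control 8.14%, 6.99%, 0.0111%, 0.928% and 7.44% in all but day 60 against day 20. On day 60 against control it was 0.18% with pseudocount 1, 0.595% with array weights, 0.0222% in a fit of both groups alone and 0.0733% to 1.23% with 1 array left out. On day 20 against day 5 it was 3.79% with array weights, 2.99% with day 5 A as day 5 and 1.12% to 2.42% with 1 array left out. Without the high Actb ratio arrays it was 4.68% on day 60 against day 20 and 6.04% against day 5.

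The arrays were not treated as paired by letter. Of 27 same-letter pairs, 9 had correlated deviations over 0.1 (range -0.243 to 0.326). The median correlation was 0.027, against -0.016 for pairs of other letters. This check cannot exclude a pairing by letter. The letter as a replicate block left 5 members called on day 5, 6 on day 20, 5 on day 60 against day 20 and 3 on day 60 against day 5, and the lost call was Pgf (-1.16, adjusted p = 0.066).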

Other observations

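Among 9 genes that endothelium is known to switch on after VEGF-A, 5 rose on day 5 and 4 on day 20 against control. On day 60 limma called none, and 2 were higher and 1 lower at an unadjusted p under 0.05. Esm1 was 29.8-fold and Kcne3 41.4-fold higher on day 5, and Esm1 was 30.9-fold and Kcne3 22.7-fold higher on day 20. On day 60 the log2 changes of Esm1 (1.22, adjusted p = 0.201) and Kcne3 (0.64, adjusted p = 0.295) did not pass.

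Of 13 respiratory chain genes with a probe set, 6 fell on day 5, beside 8.7% of all probe sets. On day 20, 1 fell, Ndufa5 of complex I, beside 6.95%, and limma called none on day 60. Of probe sets with a mean signal of at least 1000, 38.8% were called in either direction on day 5 and 32.7% on day 20. At an unadjusted p under 0.05, 12 of the 13 were lower on day 5, 8 on day 20 and 5 on day 60. None of the 13 was higher at that level. Their median log2 changes were -0.56, -0.46 and -0.44 on these days. The summed signal of the 13 ran from 284100 to 302000 on day 5 and from 262300 to 442200 on day 20, against 339400 to 569500 in control. Of 10 keratinocyte markers 4 fell on day 20, beside 6.95% of all probe sets. The keratinocyte sum ran from 14480 to 112900 on day 20, against 82300 to 142000 in control.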
